A study of Mus musculus with 6 samples.

Results

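The genes described here are 34 genes of glycolysis and of the response to low oxygen, read from a table of 17030 genes by their symbols, and all 34 were present. RNA sequencing measured them in muscle mononuclear cells of 6 mice, all male and C57BL/B6, that carried Lewis lung carcinoma (LLC), a transplantable tumour that causes muscle wasting. Every mouse had floxed alleles of IKKb (IKKbfl/fl), a kinase of the canonical NF-kB pathway, and every mouse received tamoxifen on days 10 to 14 after the tumour cells were injected. In 3 mice, called Pax7-CreERT, a tamoxifen-activated Cre was also present, driven by Pax7, a gene of muscle satellite cells, and the 3 controls had no Cre. No group had Cre without the floxed alleles, so Cre and the deletion cannot be told apart, and no group was free of tumour. The preparations are mixtures of cell types, in which Pax7-lineage cells are a part, and fewer cells of a type and less RNA per cell cannot be told apart.

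Glycolysis splits glucose into pyruvate in the cytosol, and lactate dehydrogenase turns pyruvate into lactate when it is not passed on to mitochondria. Hypoxia-inducible factor (HIF) is a pair of an oxygen-labile alpha subunit, such as HIF-1 alpha (Hif1a) or HIF-2 alpha (Epas1), and a stable partner. In normal oxygen, prolyl hydroxylases (Egln genes) mark the alpha subunit for destruction. When oxygen falls the factor stays, binds the core letters ACGTG or GCGTG in regulatory DNA, and induces most glycolytic genes together with its own hydroxylases. Muscle fibres are among the most glycolytic cells of the body and use their own forms of several of these enzymes.

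Within the RefSeq promoters of the build GRCm38.p6, which span 250 bases before to 50 bases after a gene's start, 32 of the 34 genes had an entry. Where a gene had several, the entry nearest its deposited start was taken. ACGTG or GCGTG on either strand, with overlapping matches counted as 1 site, was found in 27 of these 32 promoters (84.4%), against 7805 of 13318 promoters over the whole table (58.6%). The share was 67.7% among the 5327 promoters of the table whose GC content lay between the quartiles of the 32, since these promoters had a median GC of 64.7% against 59.7% for all. At least 2 sites stood in 19 of the 32 promoters (59.4%), against 27.3% over the table and 33.5% among those of like GC. These counts describe letters and do not show binding. The promoters below belong to the 5 genes whose groups did not overlap or whose unadjusted p was under 0.05, 4 lower and 1 higher in the Pax7-CreERT mice, with the matched letters in capitals.
Slc2a1 (chr4:119108495-119108794, plus strand): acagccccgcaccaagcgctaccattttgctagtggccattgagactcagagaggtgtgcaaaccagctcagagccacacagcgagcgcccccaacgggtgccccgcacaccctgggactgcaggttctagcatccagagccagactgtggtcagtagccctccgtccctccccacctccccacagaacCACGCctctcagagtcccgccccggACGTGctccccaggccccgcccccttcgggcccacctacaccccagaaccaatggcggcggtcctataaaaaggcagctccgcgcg
Pfkl (chr10:78009758-78010057, minus strand): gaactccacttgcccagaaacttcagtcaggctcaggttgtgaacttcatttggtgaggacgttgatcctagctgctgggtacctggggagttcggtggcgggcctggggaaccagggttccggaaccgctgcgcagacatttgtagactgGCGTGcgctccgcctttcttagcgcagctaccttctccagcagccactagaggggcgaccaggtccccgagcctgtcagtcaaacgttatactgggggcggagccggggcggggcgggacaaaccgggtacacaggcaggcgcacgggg
Pdk1 (chr2:71872974-71873273, plus strand): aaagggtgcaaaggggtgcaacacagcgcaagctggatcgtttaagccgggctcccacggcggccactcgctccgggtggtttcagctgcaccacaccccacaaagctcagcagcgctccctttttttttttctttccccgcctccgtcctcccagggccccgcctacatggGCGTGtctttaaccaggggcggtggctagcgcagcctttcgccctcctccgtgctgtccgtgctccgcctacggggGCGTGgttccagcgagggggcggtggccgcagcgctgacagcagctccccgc
Ankrd37 (chr8:45999801-46000100, minus strand): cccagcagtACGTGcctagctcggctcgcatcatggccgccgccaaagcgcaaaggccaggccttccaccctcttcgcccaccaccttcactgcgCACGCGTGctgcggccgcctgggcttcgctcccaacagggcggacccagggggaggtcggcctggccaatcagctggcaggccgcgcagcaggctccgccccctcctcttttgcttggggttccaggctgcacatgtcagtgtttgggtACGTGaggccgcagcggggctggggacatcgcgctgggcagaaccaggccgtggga
Pfkm (chr15:98092339-98092638, plus strand): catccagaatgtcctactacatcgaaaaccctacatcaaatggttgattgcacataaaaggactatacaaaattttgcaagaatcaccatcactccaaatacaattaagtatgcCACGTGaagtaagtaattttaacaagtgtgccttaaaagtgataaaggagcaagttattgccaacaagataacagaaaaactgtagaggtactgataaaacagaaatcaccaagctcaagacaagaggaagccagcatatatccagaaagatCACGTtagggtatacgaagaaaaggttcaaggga
Slc2a1 had sites that began 61 and 36 bases before the start, Pdk1 78 and 2 bases before it, and Pfkl 1 site 99 bases before it. Ankrd37 had 3 sites, 241, 155 and 6 bases before the start. Pfkm, the gene that was higher, also had 2, at 136 bases before and 17 bases into the transcript, in a promoter of 36.7% GC. Pfkm had 4 promoter entries, and which of them these cells use is not known. These 5 genes were chosen by their values here, and the part of the matches in those values was not tested.

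Levels are in CPM, reads assigned to a gene out of each 1000000, as deposited. Estimated depths were 4054000 to 13355000 reads, at which counting alone spreads a level of 10 CPM by an SD between 8.65% and 15.7%. Control replicate 3 stood apart, at 51.6 on the first principal component where the other 5 libraries lay between -17.0 and 0.20, and haemoglobin genes took 12.6% of its CPM, against 1.84% to 4.83% in the others. Its summed level of T, NK and B cell markers was 156 CPM and that of Pax7-CreERT replicate 3 was 94.2 CPM, against 15.1 to 17.9 CPM in the remaining 4 libraries. All 15 markers of endothelial cells and all 15 of macrophages and monocytes were present, and no marker with a row in the table was at 0 in every library; Cd3d, Trac, Nkg7 and Retn had no row. Mature myofibre transcripts were also present, with 24 of 24 markers and a summed level of 2582 to 3749 CPM in the Pax7-CreERT mice and 1289 to 2108 CPM in the controls. The 12 pericyte and smooth muscle markers summed to 9956 to 12522 CPM in the Pax7-CreERT mice and 7810 to 9916 CPM in the controls, and the 8 adipocyte markers with a row to 263 to 311 CPM in the Pax7-CreERT mice and 322 to 406 CPM in the controls. The 14 markers of fibro-adipogenic progenitors summed to 4188 to 8450 CPM in the Pax7-CreERT mice and 4285 to 6432 CPM in the controls. At an unadjusted limma p under 0.05, 18 of 24 myofibre, 4 of 12 pericyte and smooth muscle and 6 of 14 fibro-adipogenic progenitor markers were higher. So was 1 of 13 satellite cell markers. Lower were 2 of 6 adipocyte markers tested, 2 of 18 erythroid markers and 1 of 10 neutrophil markers tested. Of all genes tested, 4.58% were higher and 0.942% lower. Results were computed again without haemoglobin genes and with libraries left out; the part of the other cell types in them was not tested.

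The genes were expressed over a wide range in these cells. Per 1000 bases of exon, with lengths from the protein-coding transcripts of GENCODE M21, the highest level of a gene's own row was that of Epas1 with 179 ± 38.2 CPM per kb (SD over all 6 libraries). Next came Pkm, which makes pyruvate in the last step of glycolysis, with 149.5 ± 8.71 CPM per kb, Aldoa, the fructose-bisphosphate aldolase of muscle and most tissues, with 130.1 ± 17.2, and Ndrg1, a HIF-induced stress gene that is abundant in Schwann cells, with 113 ± 6.38. Epas1 and Pkm differed by less than the SD of Epas1, while Pkm and Aldoa, and Aldoa and Ndrg1, differed by more than either of their SDs. These SDs do not cover errors of exon length or of read assignment. Reads in the rows of copies, given below for Aldoa, are not included and could change this order. Tpi1 followed with 85.2 ± 6.44 CPM per kb and Ldha with 56.0 ± 4.51. At the low end, Hk2 had 2.08 ± 0.824, Egln3 1.75 ± 0.298 and Aldoc, the brain aldolase, 0.126 ± 0.0815 CPM per kb. Aldoc reached at most 0.814 CPM in any library, did not pass the filter of 1 CPM in 3 libraries, and was the 1 gene of the 34 that was not tested.

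**Figure D1:**
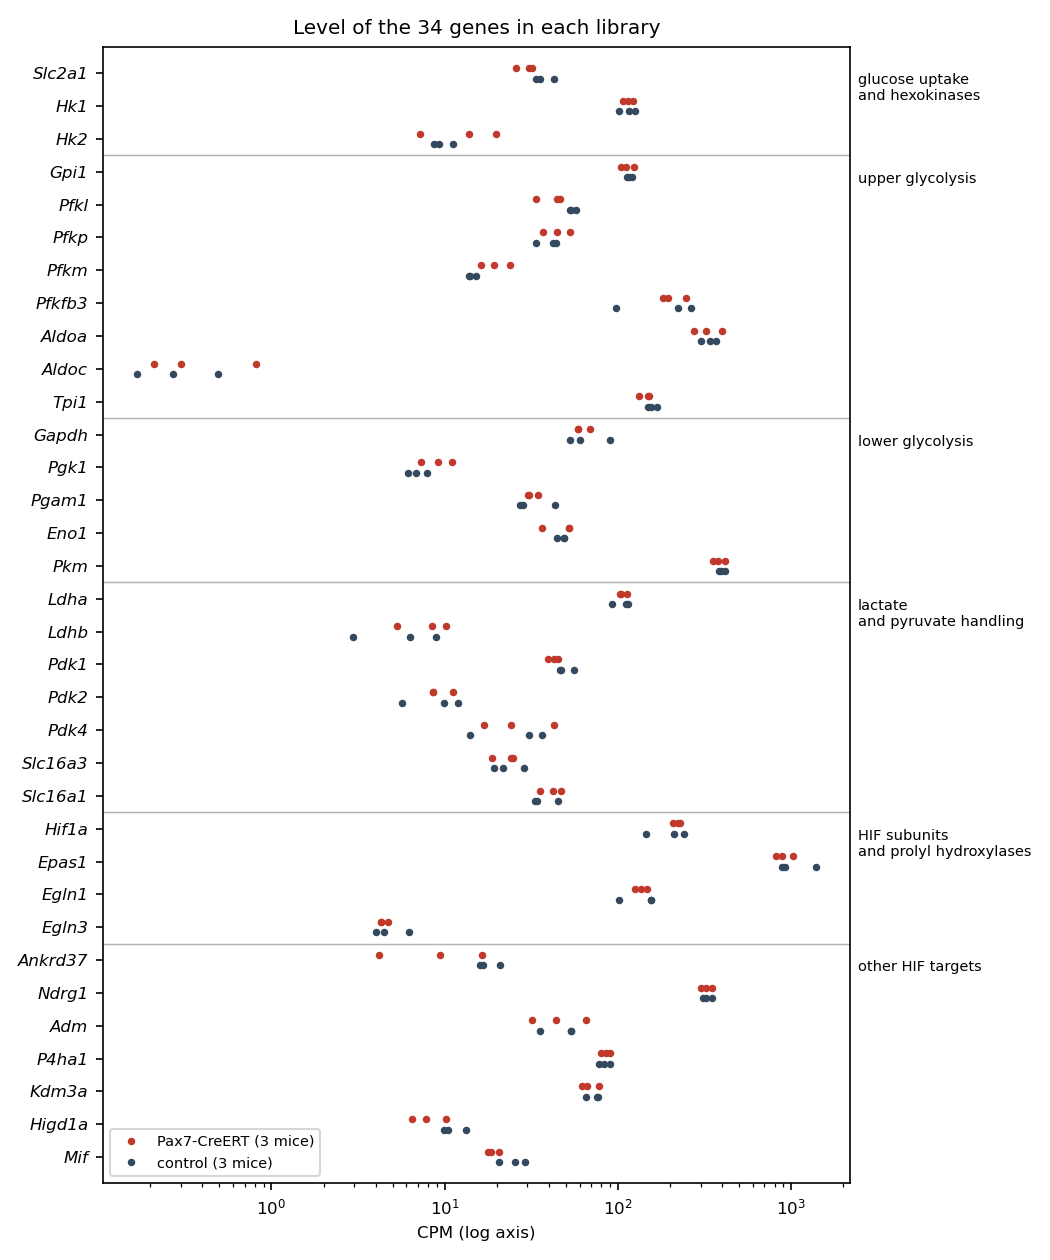
Level in CPM (log axis) of the 34 genes in each library, grouped by role, with 1 point per mouse and the Pax7-CreERT mice above the controls. Points of the groups stand apart for Slc2a1, Pfkl, Pfkm and Pdk1 and overlap for the other 30 genes.

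Several enzymes have near-identical copies elsewhere in the genome, so their levels are uncertain. Of the 50-base stretches in the transcripts of Pgk1, 68.0% also occur exactly in a transcript of another GENCODE gene, and the share was 58.4% for Gapdh, 51.1% for Mif, 49.5% for Eno1, 41.5% for Pgam1, 23.7% for Pkm and 21.0% for Ldhb. It was under 20% for each of the other genes, among them Aldoa with 6.57% and Pfkm with 8.83%, the latter all shared with Gm26513. No shared stretch was found for Epas1, Slc2a1, Pdk1, Ankrd37, Hk1 or Hk2. In addition, 7 of the genes overlap a gene on the opposite strand, Pfkm with Senp1, Slc2a1 with Gm12867 and Ankrd37 with Ufsp2 included, and whether counting used the strand is not given either. How reads of such stretches were assigned is not given in the sources used here. The copies held many reads: Aldoart1 and Aldoart2, retrocopies of Aldoa, had 128 to 177 and 67.6 to 106 CPM in the Pax7-CreERT mice, against 127 to 155 and 62.1 to 82.2 CPM in the controls. The Aldoa row itself held 56.0% to 65.9% of the sum of the 3, and the Eno1 row 38.7% to 44.3% of its sum with the copy Eno1b. Pgk1, the phosphoglycerate kinase of all tissues, had 6.17 to 11.0 CPM over the 6 libraries, and its 2 neighbours in the pathway Gapdh and Pgam1 had 52.5 to 90.4 and 27.1 to 43.2 CPM. These levels are those of the rows and may not be those of the genes.

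**Figure D2:**
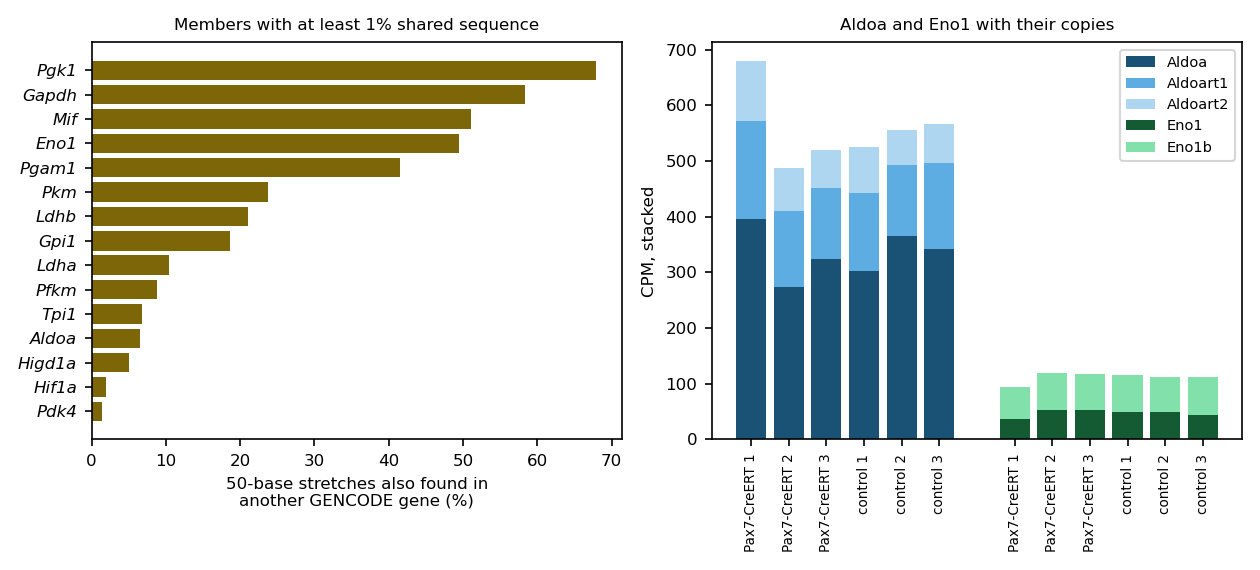
On the left, the percentage of each gene's 50-base stretches that another GENCODE gene also holds, for genes with at least 1%; on the right, stacked CPM of Aldoa with Aldoart1 and Aldoart2 and of Eno1 with Eno1b in each library. Pgk1 leads at 68.0%, and Eno1b holds more reads than Eno1 in all 6 libraries.

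The comparison asks how these transcripts differed in muscle mononuclear cells when tumour-bearing mice could lose IKKb in their Pax7-lineage cells. None of the 33 genes tested passed limma at an adjusted p under 0.05, with a lowest adjusted p of 0.891, and 1 of all 14763 genes did (0.00677%). At an unadjusted p under 0.05, 1 was higher (Pfkm) and 2 were lower (Pfkl and Ankrd37) in the Pax7-CreERT mice, where 4.58% of all genes were higher and 0.942% lower. The groups did not overlap for 1 gene on the higher side, against 8.69% of all genes, and for 3 genes on the lower side (Slc2a1, Pfkl and Pdk1), against 2.28%. The log2 fold change, Pax7-CreERT over control on log2(CPM + 1), was above 0 for 14 genes and below 0 for 19, against 68.0% of all genes above 0. Its median was -0.03, beside 0.09 over all genes tested. With TMM scaling the median of all genes was -0.002 and that of the 33 genes -0.12, and the split at an unadjusted p under 0.05 was 0 higher and 6 lower, where all genes had 362 higher and 320 lower. Without control replicate 3 that split was 0 higher and 2 lower, without Pax7-CreERT replicate 1 it was 0 and 1, and without control replicate 1 it was 0 and 0. In the same order, all genes had 723 higher and 224 lower, 317 and 114, and 825 and 185.

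**Figure D3:**
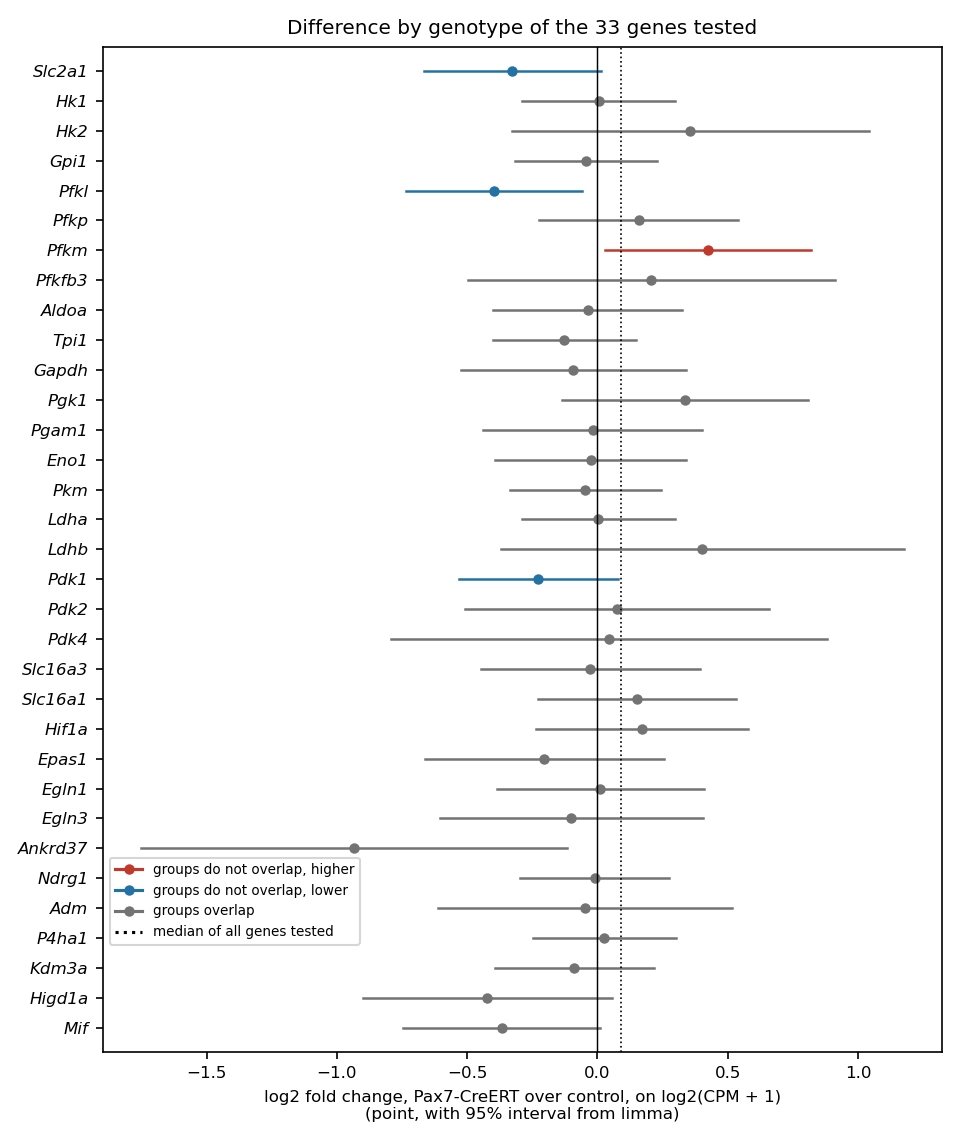
Log2 fold change of the 33 genes tested, Pax7-CreERT over control, with 95% intervals from limma; colour marks groups that do not overlap and the dotted line is the median of all genes at 0.09. Most points lie within 0.5 of 0, with Ankrd37 at -0.93 and Pfkm at 0.42 as the ends.

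None of the 3 genes of glucose entry passed the test, and the groups stood apart for 1 of them, Slc2a1. Slc2a1 (chromosome 4, 119108745 to 119137329), which encodes the glucose transporter GLUT1, measured 32.1, 30.6 and 25.8 CPM in Pax7-CreERT mice 1 to 3, against 35.6, 33.8 and 42.4 CPM in the controls. Every Pax7-CreERT value lay below every control value, and control replicate 3 was the highest. It averaged 29.5 ± 3.25 CPM in the Pax7-CreERT mice and 37.3 ± 4.55 CPM in the controls (SD, n = 3 each). This was -0.33 ± 0.15 (SE) in log2 units, with a limma adjusted p of 0.896 and an exact 2-sided permutation p of 0.1, the smallest that 3 against 3 can give. The log2 fold change was -0.23 without control replicate 3. Hk1, the hexokinase that traps glucose in most cells, measured 122, 107 and 114 CPM in the Pax7-CreERT mice and 116, 126 and 101 CPM in the controls. These ranges overlapped almost fully, and the 95% interval of its log2 fold change ran from -0.29 to 0.30. Hk2, the inducible hexokinase of muscle and fat, was uneven, with 19.9, 7.19 and 13.8 CPM in the Pax7-CreERT mice and 11.2, 9.30 and 8.63 CPM in the controls. The Pax7-CreERT libraries held both its highest and its lowest value, and its log2 fold change of 0.36 ± 0.31 (SE; limma adjusted p = 0.903) ranged from 0.05 to 0.72 when single libraries were left out.

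The phosphofructokinases, which catalyse the committed step of glycolysis, stood on different sides of the controls by isoform. Pfkl (chromosome 10, 77986949 to 78009807), the liver form, measured 44.3, 33.8 and 46.4 CPM in the Pax7-CreERT mice, against 57.2, 53.5 and 52.8 CPM in the controls. All 3 Pax7-CreERT values were below the controls, and the controls lay close together. In log2 units the difference was -0.40 ± 0.15 (SE; limma adjusted p = 0.891, exact permutation p = 0.1), -0.26 without Pax7-CreERT replicate 2, and -0.42 when control replicate 3 was left out. Pfkm (chromosome 15, 98092589 to 98132447), the form of muscle fibres, measured 23.8, 19.2 and 16.3 CPM in the Pax7-CreERT mice, against 14.0, 15.1 and 13.8 CPM in the controls. Here every Pax7-CreERT value was above the controls. In log2 units the difference was 0.42 ± 0.18 (SE; limma adjusted p = 0.891, exact permutation p = 0.1), 0.33 with TMM scaling and 0.29 without Pax7-CreERT replicate 1. Pfkp, the platelet form, overlapped between the groups, with 53.0, 44.3 and 37.0 CPM in the Pax7-CreERT mice and 44.0, 42.1 and 33.5 CPM in the controls.

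Set against Pfkl in the same library, which removes the scaling of libraries, Pfkm was the isoform with the larger difference. The ratio of Pfkm to Pfkl, in CPM and not per length, was 0.537, 0.570 and 0.351 in the Pax7-CreERT mice, against 0.246, 0.282 and 0.262 in the controls. Pfkp over Pfkl was 1.198, 1.31 and 0.796 in the Pax7-CreERT mice, against 0.769, 0.787 and 0.634 in the controls. Neither ratio overlapped between the groups, though Pax7-CreERT replicate 3 came close to the controls in both. Pfkm alone lay above the controls and Pfkl alone below them in every Pax7-CreERT library. The separation of Pfkm over Pfkl, its permutation p and the sign of its difference followed from this and add no support. Pfkp alone overlapped, and Pfkp over Pfkl uses the same Pfkl values. On the log2 scale, with 1 CPM added to each gene, the differences were 0.82 for Pfkm over Pfkl and 0.56 for Pfkp over Pfkl, each with an exact permutation p of 0.1 and an adjusted p of 0.5 over the 10 isoform pairs compared. Without single libraries Pfkm over Pfkl stayed between 0.69 and 1.03 and Pfkp over Pfkl between 0.42 and 0.77. A ratio shows unequal change and not which of its genes moved. Beside these values, the 24 mature myofibre markers, which include the muscle enzymes Eno3 and Pgam2, were higher in all 3 Pax7-CreERT libraries than in all 3 controls, by the sums given above. Their part in the Pfkm result was not tested.

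**Figure D4:**
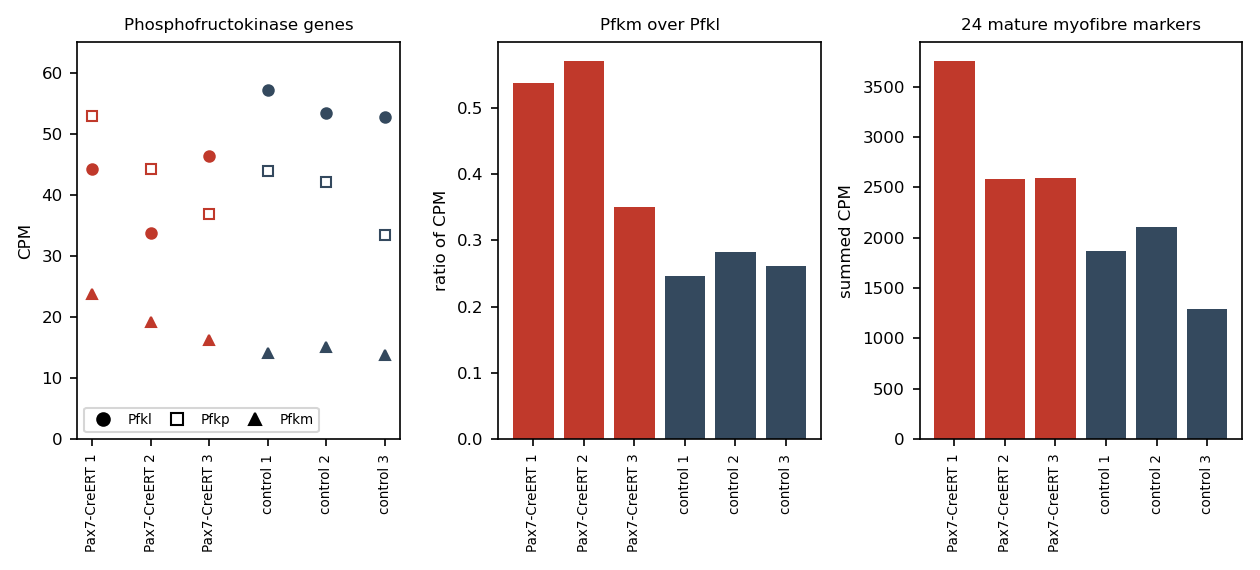
Phosphofructokinase genes in each library (left, CPM), the ratio of Pfkm to Pfkl (middle, ratio of CPM) and the summed level of 24 mature myofibre markers (right, CPM), with the Pax7-CreERT mice in red and the controls in dark blue. Pfkm over Pfkl is 0.351 or more in the Pax7-CreERT mice and 0.282 or less in the controls.

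The rest of upper glycolysis showed no separation by genotype. Gpi1, which converts glucose 6-phosphate to fructose 6-phosphate, averaged 113 ± 9.62 CPM in the Pax7-CreERT mice and 116 ± 4.26 CPM in the controls. Aldoa measured 396, 273 and 323 CPM in the Pax7-CreERT mice and 303, 366 and 341 CPM in the controls, and with its retrocopies added the log2 difference was 0.02 in place of -0.04. Tpi1, the triosephosphate isomerase, averaged 144 ± 10.4 and 157 ± 9.10 CPM in the Pax7-CreERT mice and the controls, with a 95% interval of -0.40 to 0.15 on the log2 scale. Pfkfb3, whose product makes the activator of phosphofructokinase, measured 248, 183 and 194 CPM in the Pax7-CreERT mice and 221, 265 and 97.2 CPM in the controls. Control replicate 3 was lowest by far, and the log2 fold change of Pfkfb3 was 0.21 with it and -0.23 without it. Aldoc was close to the limit of counting, at 0.210, 0.300 and 0.814 CPM in the Pax7-CreERT mice and 0.167, 0.270 and 0.493 CPM in the controls, and no fold is given.

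In lower glycolysis 0 of 5 genes passed, and the groups overlapped for each. Gapdh, which oxidises glyceraldehyde 3-phosphate, averaged 62.0 ± 5.77 CPM in the Pax7-CreERT mice and 67.8 ± 19.99 CPM in the controls, where control replicate 2 reached 90.4 CPM, and the 95% interval of its log2 fold change was -0.52 to 0.34. Pgk1 averaged 9.13 ± 1.86 and 6.96 ± 0.848 CPM in the Pax7-CreERT mice and the controls, with a log2 fold change of 0.34 ± 0.21 (SE; limma adjusted p = 0.896) that was 0.21 without Pax7-CreERT replicate 3. Pgam1, the phosphoglycerate mutase outside muscle, averaged 31.7 ± 2.48 and 32.8 ± 8.97 CPM in the same order of groups, and Eno1, the enolase of most tissues, 46.8 ± 9.15 and 47.1 ± 2.55 CPM. Pkm averaged 383 ± 30.5 CPM in the Pax7-CreERT mice and 395 ± 15.8 CPM in the controls, with a 95% interval of -0.34 to 0.25 for its log2 fold change. Of these 5 genes, 1 had a log2 fold change above 0 and 4 below 0, where 68.0% of all genes were above 0.

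Among the 7 genes that handle lactate and pyruvate 0 passed the test, and the groups stood apart for 1, Pdk1. Pdk1 (chromosome 2, 71873224 to 71903858), a HIF-induced kinase that shuts off pyruvate dehydrogenase, measured 42.7, 39.5 and 44.98 CPM in the Pax7-CreERT mice, against 56.0, 46.5 and 47.1 CPM in the controls. The groups did not overlap, although control replicate 2 lay just above Pax7-CreERT replicate 3. In log2 units the difference was -0.23 ± 0.14 (SE; limma adjusted p = 0.896, exact permutation p = 0.1), and -0.14 without control replicate 1. Pdk2, the broadly expressed kinase of the family, measured 11.1, 8.54 and 8.55 CPM in the Pax7-CreERT mice and 5.68, 12.0 and 9.87 CPM in the controls. Pdk4, which fasting and fatty acids induce in muscle, measured 42.5, 23.96 and 16.9 CPM in the Pax7-CreERT mice and 30.6, 36.2 and 14.1 CPM in the controls. Each group held a high and a low Pdk4 library, and its 95% interval of -0.79 to 0.88 was the widest of the 3 Pdk genes.

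Lactate dehydrogenase and the lactate carriers overlapped between the groups. Ldha, the HIF-induced subunit that favours lactate, measured 102, 103 and 113 CPM in the Pax7-CreERT mice and 115, 112 and 92.3 CPM in the controls, with a 95% interval of -0.29 to 0.30 for its log2 fold change. Ldhb, the subunit of oxidative tissue, measured 8.41, 10.2 and 5.29 CPM in the Pax7-CreERT mice and 8.86, 6.33 and 2.96 CPM in the controls. The lowest library of each group was its replicate 3, and the log2 difference in Ldha over Ldhb was -0.40 (exact permutation p = 0.4, adjusted p = 0.778 over the 10 pairs). It shrank to -0.13 when control replicate 3 was left out and to -0.20 when Pax7-CreERT replicate 2 was, and it was -0.63 when control replicate 1 and -0.68 when Pax7-CreERT replicate 3 was omitted. Slc16a3, the lactate exporter MCT4 of glycolytic cells, measured 24.7, 18.8 and 24.2 CPM in the Pax7-CreERT mice and 19.2, 28.6 and 21.7 CPM in the controls. Slc16a1, the carrier MCT1, measured 47.1, 35.5 and 42.1 CPM in the Pax7-CreERT mice and 45.3, 33.01 and 34.04 CPM in the controls. Slc16a3 over Slc16a1 was 0.525 to 0.575 in the Pax7-CreERT mice and spread from 0.424 to 0.865 in the controls.

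The HIF subunits themselves did not differ beyond their spread, which was wider in the controls. Hif1a measured 228, 221 and 207 CPM in the Pax7-CreERT mice and 239, 212 and 144 CPM in the controls, where replicate 3 was lowest. Its log2 fold change was 0.17 ± 0.18 (SE; limma adjusted p = 0.920) and -0.04 without that library. Epas1, which is high in endothelial cells, measured 819.6, 888 and 1023 CPM in the Pax7-CreERT mice and 923, 1396 and 883 CPM in the controls. Control replicate 2 was the highest library for Epas1 and for the summed endothelial markers, at 16821 CPM, where the others had 11937 to 15292 CPM. The log2 fold change of Epas1 was -0.20 (SE 0.21, adjusted p = 0.916) and 0.006 without that library. Epas1 over Hif1a was 3.601, 4.01 and 4.95 in the Pax7-CreERT mice and 3.86, 6.60 and 6.12 in the controls (exact permutation p = 0.3, adjusted p = 0.778 over the 10 pairs). The log2 difference was -0.37, but -0.61 without control replicate 1 and -0.23 without control replicate 2.

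Prolyl hydroxylases are themselves HIF targets. Egln1, the main oxygen sensor of HIF-1 alpha, measured 147, 125 and 135 CPM in the Pax7-CreERT mice and 156, 155 and 101 CPM in the controls, again with control replicate 3 lowest. Its log2 fold change was 0.01 (SE 0.18) and -0.19 without that library. Egln3 was low, at 4.73, 4.27 and 4.27 CPM in the Pax7-CreERT mice and 4.01, 6.20 and 4.44 CPM in the controls, and its groups overlapped.

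Of 7 further HIF targets, 6 had a log2 fold change below 0 and 1 above 0, where 68.0% of all genes were above 0. Ankrd37, Higd1a and Mif were the lowest. Ankrd37 (chromosome 8, 45996908 to 45999850), an ankyrin repeat gene that is a direct HIF target, measured 9.36, 4.19 and 16.5 CPM in the Pax7-CreERT mice, against 16.7, 16.03 and 20.7 CPM in the controls. Replicates 1 and 2 of the Pax7-CreERT mice lay well below every control, and replicate 3 lay among the controls. In log2 units the difference was -0.93 ± 0.37 (SE; limma adjusted p = 0.891, exact permutation p = 0.2), the lowest of the 33 genes, but -0.48 without Pax7-CreERT replicate 2 and -1.35 without replicate 3. Mif, which encodes a cytokine that acts on macrophages, averaged 19.0 ± 1.39 CPM in the Pax7-CreERT mice and 25.01 ± 4.32 CPM in the controls, with a log2 fold change of -0.37 ± 0.17 (SE; limma adjusted p = 0.896). Higd1a, a mitochondrial protein of the hypoxia response, averaged 8.16 ± 1.86 and 11.2 ± 1.77 CPM in the Pax7-CreERT mice and the controls, with a log2 fold change of -0.42 ± 0.21 (SE; limma adjusted p = 0.896). In Mif and Higd1a 1 Pax7-CreERT library overlapped the controls.

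The remaining 4 targets were nearly equal in mean. Ndrg1 averaged 325 ± 22.9 CPM in the Pax7-CreERT mice and 327 ± 18.0 CPM in the controls, and its 95% interval for the log2 fold change ran from -0.30 to 0.28. P4ha1, a collagen prolyl hydroxylase subunit, averaged 85.1 ± 4.84 and 83.6 ± 6.12 CPM in the Pax7-CreERT mice and the controls, with an interval of -0.25 to 0.30. Kdm3a, a histone demethylase, averaged 68.4 ± 7.86 CPM in the Pax7-CreERT mice and 72.6 ± 6.11 CPM in the controls. Adm, the vasodilator adrenomedullin, was more variable, with 31.8 to 65.1 CPM in the Pax7-CreERT mice and 35.4 to 53.5 CPM in the controls. For 13 of the 33 genes the 95% interval lay within 0.5 of 0 on the log2 scale, and the SEs of the 33 ran from 0.12 to 0.37 with a median of 0.18, beside a median of 0.20 over all genes tested.

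The groups of genes did not follow the same libraries. The position of a group in a library is here the median over its genes of log2(CPM + 1) after centring each gene on its mean. Over the 33 genes this was 0.09, -0.11 and -0.01 in Pax7-CreERT replicates 1, 2 and 3, against 0.08, 0.08 and -0.08 in control replicates 1, 2 and 3. The 7 further HIF targets were at -0.09, -0.18 and -0.06 in the Pax7-CreERT mice and 0.22, 0.10 and -0.01 in the controls. The 39 other HIF pathway and hypoxia target genes tested, described below, overlapped. They were at -0.050, -0.091 and 0.008 in the Pax7-CreERT mice and -0.009, 0.055 and -0.054 in the controls. Of the role groups, only the 7 further HIF targets had positions that did not overlap. The median of all 14763 genes tested did not overlap either, in the other direction. It was 0.06, 0.07 and 0.02 in the Pax7-CreERT mice and 0.004, -0.005 and -0.12 in the controls. Mature myofibre, pericyte and smooth muscle, and satellite cell markers were also higher in position in all Pax7-CreERT libraries than in all controls. Adipocyte markers, with 6 of 6 tested below 0, were at -0.33, -0.22 and -0.05 in the Pax7-CreERT mice and 0.02, 0.11 and 0.47 in the controls, also without overlap. Erythroid markers, with 18 of 18 below 0, were at -0.48, -1.06 and 0.06 in the Pax7-CreERT mice and 0.18, -0.59 and 1.93 in the controls, and overlapped. The part of these cells in the HIF target values was not tested. Upper glycolysis was highest in Pax7-CreERT replicate 1 (0.26), lactate and pyruvate genes in Pax7-CreERT replicate 1 (0.26) and control replicate 1 (0.21), and the HIF subunits with their hydroxylases in control replicate 2 (0.28). Of the 33 genes, 11 had their lowest value in Pax7-CreERT replicate 2 (33.3%), where 9.01% of all genes tested had theirs, and 11 had it in control replicate 3 (33.3%), where 39.8% of all genes did.

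**Figure D5:**
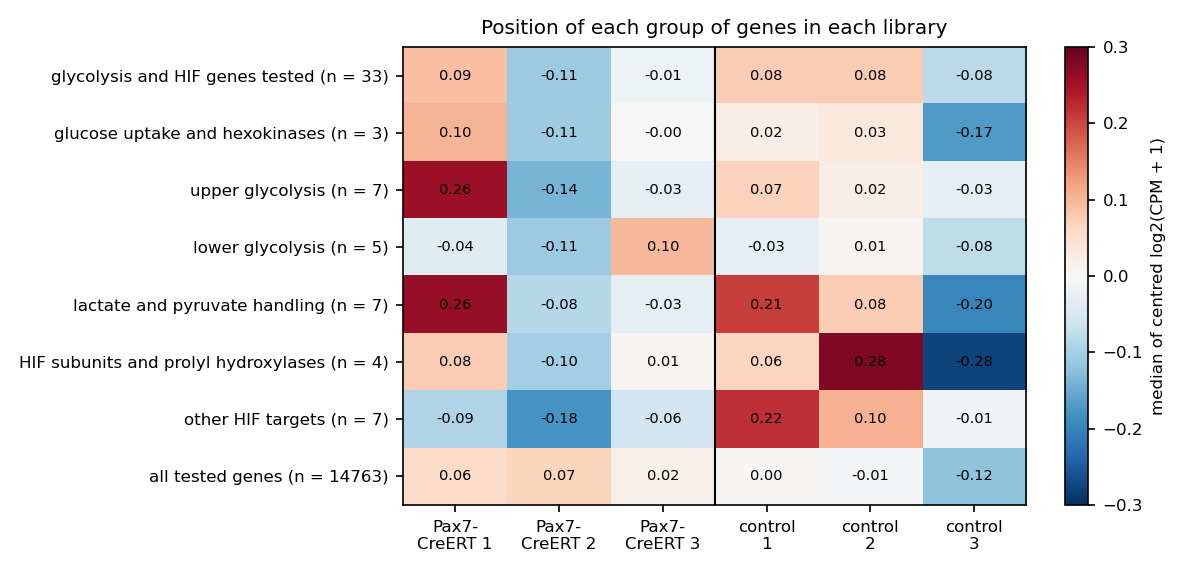
Median of log2(CPM + 1), centred per gene, for each role group (rows) in each library (columns), with red above and blue below the mean of the 6 libraries. The further HIF targets lie at -0.06 or lower in the Pax7-CreERT mice and at -0.01 or higher in the controls, while upper glycolysis and lactate genes follow single libraries.

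Other genes of these pathways were read from lists of related genes. Of 39 other HIF pathway and hypoxia target genes tested, 0 passed at an adjusted p under 0.05 with limma, and 2 were higher and 2 lower at an unadjusted p under 0.05, beside 4.58% and 0.942% of all genes tested. The groups did not overlap for 2 higher and 4 lower, beside 8.69% and 2.28% of all genes. The median log2 fold change was -0.03. The hypoxia-induced mitophagy receptor gene Bnip3 measured 84.2, 57.1 and 97.1 CPM in the Pax7-CreERT mice, against 139, 142 and 134 CPM in the controls. Ddit4, a HIF and glucocorticoid target that restrains mTORC1, measured 67.7, 86.4 and 55.8 CPM in the Pax7-CreERT mice, against 115, 105 and 96.0 CPM in the controls. Both were lower in all 3 Pax7-CreERT libraries, with log2 fold changes of -0.83 (SE 0.18) and -0.60 (SE 0.17) and an adjusted p of 0.891 each. In the other direction stood Hif1an, the asparaginyl hydroxylase that blocks HIF activity, which averaged 39.7 ± 3.03 CPM in the Pax7-CreERT mice and 29.3 ± 5.71 CPM in the controls. In log2 units this was 0.44 ± 0.17 (SE), with a limma adjusted p of 0.891.

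Among 21 other glycolysis and glucose genes tested, 0 passed with limma. The groups did not overlap for 2 higher and 1 lower, beside 8.69% and 2.28% of all genes. The log2 fold change was above 0 for 10 and below 0 for 11, where 68.0% of all genes were above 0, and its median was -0.03. At an unadjusted limma p under 0.05, 3 were higher and 0 lower, beside 4.58% and 0.942% of all genes. All 3 are enzymes of muscle. Pygm, the glycogen phosphorylase of muscle, measured 62.4, 39.5 and 38.1 CPM in the Pax7-CreERT mice, against 26.2, 32.9 and 24.9 CPM in the controls. Fbp2, the fructose bisphosphatase of muscle, measured 4.94, 3.22 and 2.85 CPM in the Pax7-CreERT mice, against 1.505, 1.62 and 1.48 CPM in the controls. Pgam2, the muscle phosphoglycerate mutase, averaged 30.2 ± 13.0 and 17.4 ± 4.07 CPM in the Pax7-CreERT mice and the controls. Eno3, the muscle enolase, averaged 24.5 ± 15.6 CPM in the Pax7-CreERT mice and 14.2 ± 2.44 CPM in the controls, with its highest value of 42.5 CPM in Pax7-CreERT replicate 1. The adjusted p was 0.891 for Pygm, Fbp2 and Pgam2 and 0.896 for Eno3. These values stand beside the same difference in the mature myofibre markers, whose part was not tested. Pgam2 and Eno3 are themselves among those markers, so for them the likeness adds nothing. Of 12 genes of pyruvate entry into mitochondria, 0 passed and 0 had an unadjusted p under 0.05 with limma, 9 had a log2 fold change above 0 and 3 below 0, where 68.0% of all genes were above 0, and the median was 0.06. Pdha1, the catalytic subunit of pyruvate dehydrogenase that the Pdk kinases act on, averaged 102 ± 3.56 CPM in the Pax7-CreERT mice and 90.02 ± 12.7 CPM in the controls.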

How the data were processed

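RNA was measured in 6 libraries, 3 per genotype, prepared with a strand-specific kit, per the labels' protocols. The authors deposited CPM (out of each 1000000 reads assigned to the 17030 genes) with 0.0001 added to every value, as read from the values. Per the submitters' processing notes, Partek, DESeq2 and mm10 were named without roles; the aligner and counting rule are not given in the sources used here. Depth was estimated from the smallest step between low values. Only 92.9% to 93.9% of values up to 20 reads were whole within 0.05 read, so whole reads were not recovered and count tests were not run.

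limma 3.58.1 (R 4.3.3) with a mean-variance trend was fitted on log2(CPM + 1) over the 14763 genes that reached 1 CPM in 3 or more libraries, with Benjamini-Hochberg adjustment over all of them. This scale understates the fold changes of low genes. Single genes and isoform ratios were tested by exact 2-sided permutation, where 3 against 3 cannot give less than 0.1. Labels do not give separate cultures or litters, so p-values cover the spread between these mice. The fit was also run on simulated data, in which genes varied independently of each other. No simulated library stood apart as control replicate 3 did, so that run does not cover such a shift. Gene ends are given 1 base below the deposited ends, which then equal RefSeq for 26 of 34 genes. Members, lists and pairs were chosen with earlier results of these data known. Among the 34 genes, values are given per library where the groups do not overlap, the unadjusted limma p is under 0.05 or the gene is in an isoform pair. At most 4 genes per related list are named, those with the smallest limma p, some by group mean and SD only. 1 of these is not reported here. Alternatives were other pseudocounts, filters, scalings, array weights and left-out libraries. TMM factors were computed on the CPM with a function written for this purpose. Fold change intervals are from limma, and counting errors cover sampling of reads only.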

Additional observations from a re-analysis of the deposited data

How the results depend on the processing

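No gene of the 33 passed an adjusted p under 0.05 with limma under any alternative run, where the lowest adjusted p was 0.539, with array weights. The number at an unadjusted p under 0.05 was 3 (1 higher and 2 lower), where 5.52% of all genes tested were under it. It was 6 with TMM scaling (4.60% of all genes), 6 with quantile normalization (4.61%) and 5 without haemoglobin genes (5.04%), all of them lower. With libraries left out, either singly or as the pair of Pax7-CreERT replicate 1 and control replicate 3, it was 0 to 4, beside 2.97% to 6.93% of all genes. The median log2 fold change of -0.03 was -0.12 with TMM scaling and -0.13 to 0.033 with libraries left out in these ways. Over the 26 genes that share under 20% of their 50-base stretches, it was -0.02, and 3 had an unadjusted p under 0.05. Aldoa, with 6.57% shared, is among these 26, so this cut does not remove every gene with copies. This subset and the sums with copies were chosen after seeing the data. The causes were not tested.

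Small log2 fold changes turned in sign. With TMM scaling these were Hk1 -0.093, Ldha -0.094, Pdk2 -0.013, Pdk4 -0.050, Egln1 -0.087 and P4ha1 -0.071, and with quantile normalization Hk1 -0.063, Ldha -0.062, Pdk2 -0.026, Pdk4 -0.038, Egln1 -0.050 and P4ha1 -0.045. Without haemoglobin genes they were Hk1 -0.048, Ldha -0.050, Pdk4 -0.0063, Egln1 -0.042 and P4ha1 -0.026. With array weights they were Hk1 -0.061, Pfkfb3 -0.093, Pgam1 0.13, Ldha -0.065, Pdk4 -0.18, Egln1 -0.12 and Adm 0.081. Aldoa summed with its retrocopies was 0.019.

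The same ways of leaving out libraries gave Hk1 -0.13 to 0.077, Hk2 -0.024 to 0.72, Gpi1 -0.11 to 0.013, Pfkp -0.086 to 0.29, Pfkfb3 -0.36 to 0.49, Aldoa -0.18 to 0.092, Gapdh -0.25 to 0.13, Pgam1 -0.14 to 0.22, Eno1 -0.11 to 0.14, Pkm -0.11 to 0.0071, Ldha -0.094 to 0.062 and Ldhb -0.019 to 0.69. They also gave Pdk2 -0.20 to 0.28, Pdk4 -0.70 to 0.34, Slc16a3 -0.15 to 0.13, Slc16a1 -0.00025 to 0.29, Hif1a -0.071 to 0.32, Epas1 -0.32 to 0.0058, Egln1 -0.25 to 0.12, Egln3 -0.21 to 0.054, Ndrg1 -0.062 to 0.039, Adm -0.31 to 0.20 and P4ha1 -0.060 to 0.082. As log2 differences of ratios they gave Pdk1 over Pdk2 -0.55 to 0.058 and Pdk4 over Pdk2 -0.73 to 0.38. Slc16a3 over Slc16a1 ran from -0.44 to 0.057 and Egln3 over Egln1 from -0.32 to 0.065. Aldoc over Aldoa ran from -0.027 to 0.50, but Aldoc lay below the added 1 CPM in every library, so the added value weighs heavily in it. No paired analysis was possible because the replicate numbers only follow the order of the samples and pair no mice. Depth limits genes near 1 CPM, such as Aldoc.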
